A study of Mus musculus with 9 samples.

Results

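The glycolysis enzymes described here are the products of 10 genes (Gapdh, Aldoa, Aldoc, Tpi1, Pgk1, Eno1, Eno2, Pkm, Ldha and Ldhb), taken by symbol from the 31053 genes of the deposited count matrices. The 10 symbols matched 11 gene identifiers, because Aldoa has a second identifier with 418 UMIs in all. UMIs, or unique molecular identifiers, count captured RNA molecules. The question was whether Gapdh moved with its pathway across brain cell classes in ageing and after expression of B3GNT3. The members were selected on measured values in part. Gapdh was singled out for its differences between the groups in earlier results of these same libraries, so its differences are a description without a test. Whether measured values also entered the choice of the other 9 is not known, and their counts are read beside the background of all genes tested and not as independent support.

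Glycolysis splits glucose into pyruvate in the cytosol and yields ATP and NADH. Aldolase cleaves the hexose bisphosphate, triose phosphate isomerase interconverts the resulting trioses, glyceraldehyde-3-phosphate dehydrogenase and phosphoglycerate kinase carry out the NADH-forming and ATP-forming steps, and enolase and pyruvate kinase lead to pyruvate. Lactate dehydrogenase interconverts pyruvate and lactate, and in brain the isozymes differ between neurons and glia, with aldolase C known from astrocytes and enolase 2 from neurons. Gapdh is widely used as a reference transcript for scaling other measurements.

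Nuclei of pooled cortex and hippocampus from 9 male C57BL/6 mice were sequenced in droplets with 3′ chemistry, 1 library a mouse. Young mice that had received AAV-EGFP, aged mice that had received AAV-EGFP and aged mice that had received AAV-B3GNT3 numbered 3 each. By the study's account young mice came from Jackson Laboratories and aged mice from the National Institute on Aging colony. Age and supplier therefore cannot be told apart in the comparison of young and aged mice. AAV-EGFP is an adeno-associated virus carrying the fluorescent protein EGFP as a control, and AAV-B3GNT3 carries EGFP together with B3GNT3, a glycosyltransferase that extends O-glycans. Both viruses had the PHP.V1 capsid and an abbreviated CLDN5 promoter active in brain endothelial cells (BECs), were given retro-orbitally, and tissue was taken 8 weeks later, so every mouse carried a virus and only BECs were meant to express the transgene. Ageing is aged AAV-EGFP against young AAV-EGFP and treatment is aged AAV-B3GNT3 against aged AAV-EGFP. Both contrasts share the 3 aged AAV-EGFP libraries.

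Libraries held 47332047 to 79964605 UMIs, and 5767 to 9271 nuclei were kept in each, with medians of 3022 to 5311 UMIs a nucleus. Of 70217 nuclei, 63999 fell into 9 marker-defined classes: 19339 excitatory neuron-like, 7895 inhibitory neuron-like, 8428 astrocyte-like, 20353 oligodendrocyte-like, 2476 oligodendrocyte precursor-like (OPC), 2131 microglia-like, 703 BEC-like, 930 pericyte-like and 1744 fibroblast-like nuclei, named below without the suffix. The summed level of a class's own markers exceeded that of the same list in every other class, except for the excitatory list. That list was at 1629.5 to 2091 CPM (counts scaled to a common library total) in excitatory neurons and up to 2899.5 CPM in another class. It was higher in astrocytes than in excitatory neurons, the class that comparisons between classes below are set against. No defining marker was at 0 in its class. Of the inhibitory neurons, 3465 nuclei formed a single cluster led by Drd2, Sh3rf2, Tspear, Rarb and Rgs9, so that class joins unlike clusters. The libraries shared 734 barcode sequences. The RNA is nuclear RNA, and 3′ counts carry no length scale, so levels are compared within a gene and isozymes by their share of UMIs.

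The 4 promoter windows below belong to Gapdh, to Aldoa, the member most like it over the libraries, and to Pgk1 and Ldha, which were less like Gapdh in mean r over 4 classes (Pgk1 was still called in oligodendrocytes). Each is the 250 bases before a RefSeq transcription start on build GRCm38.p6, written 5′ to 3′ on the gene's strand, and capitals mark ACGTG or GCGTG on either strand (CACGT or CACGC on the reverse), the core of the hypoxia response element. Gapdh lies at chr6:125165774-125166023 on the minus strand, Aldoa (start 2 of 3) at chr7:126799255-126799504 on the minus strand, Pgk1 at chrX:106186850-106187099 on the plus strand and Ldha (start 1 of 2) at chr7:46845554-46845803 on the plus strand.
Gapdh: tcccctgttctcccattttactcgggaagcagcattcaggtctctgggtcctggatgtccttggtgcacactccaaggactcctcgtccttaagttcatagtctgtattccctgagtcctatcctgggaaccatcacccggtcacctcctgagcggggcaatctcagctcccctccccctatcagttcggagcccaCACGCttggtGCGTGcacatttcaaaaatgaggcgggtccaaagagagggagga
Aldoa: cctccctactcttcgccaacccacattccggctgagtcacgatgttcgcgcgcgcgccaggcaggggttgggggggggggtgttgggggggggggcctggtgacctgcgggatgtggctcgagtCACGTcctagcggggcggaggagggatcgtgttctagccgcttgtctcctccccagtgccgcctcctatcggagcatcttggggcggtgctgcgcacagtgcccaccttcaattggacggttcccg
Pgk1: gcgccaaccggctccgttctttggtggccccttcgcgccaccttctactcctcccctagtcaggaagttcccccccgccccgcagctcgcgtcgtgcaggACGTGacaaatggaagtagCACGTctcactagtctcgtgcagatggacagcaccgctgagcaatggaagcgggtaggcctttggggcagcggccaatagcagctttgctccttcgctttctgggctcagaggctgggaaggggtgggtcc
Ldha: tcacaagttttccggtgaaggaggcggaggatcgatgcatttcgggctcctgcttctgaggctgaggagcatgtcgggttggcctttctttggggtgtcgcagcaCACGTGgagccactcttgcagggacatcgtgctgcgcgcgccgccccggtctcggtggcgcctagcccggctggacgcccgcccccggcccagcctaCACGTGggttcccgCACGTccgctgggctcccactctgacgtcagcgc

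Counted back from the base before the start, the Gapdh window held GCGTG at -54 and -44, and the Aldoa window held ACGTG at -126. The Pgk1 window held ACGTG at -150 and -131, and the Ldha window held 5 ACGTG matches, at -145, -144, -48, -47 and -34, where neighbouring positions are the overlapping matches of CACGTG on both strands. Of 32851 such windows 38.6% held ACGTG or GCGTG, 16.6% held ACGTG and 28.2% held GCGTG. The windows shown were picked from those with a match, which is a description of the letters. The windows of Tpi1 and Eno2, of the first Aldoa start and of the first Pkm start held none.

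On the mouse assembly used for counting, Gapdh lies at chr6:125161715-125166467, Eno2 at chr6:124760053-124769673, Tpi1 at chr6:124810586-124814296 and Ldhb at chr6:142490249-142507957, so 4 members share chromosome 6. Aldoa (chr7:126795234-126800751) and Ldha (chr7:46841475-46855627) are on chromosome 7, Pgk1 (chrX:106187100-106203699) is on the X, and Aldoc (chr11:78322968-78327781), Eno1 (chr4:150236721-150248879) and Pkm (chr9:59656368-59679375) are on chromosomes of their own. Over all barcodes the members gave between 6268 UMIs (Tpi1) and 29912 UMIs (Pkm), with 18223 for Gapdh and 16614 for Aldoa. Gapdh overlaps Iffo1, Tpi1 overlaps Spsb2 and Aldoa overlaps Fam57b, each on the opposite strand, and Pkm shares its strand with Gm49759. Gapdh has many processed copies in the genome, and how reads were divided between them is not given in the sources used here, so its counts are uncertain to that extent.

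Group values below are normalised CPM, UMIs summed over the nuclei of a class in a library and scaled by the TMM factors of that class, with n = 3 libraries a group. Fold changes are log2 values with their standard error (SE) from edgeR's quasi-likelihood fit over all genes tested in the class, and a call is an adjusted p (Benjamini-Hochberg over those genes) under 0.05.

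Gapdh, glyceraldehyde-3-phosphate dehydrogenase, was higher in aged AAV-EGFP than in young AAV-EGFP in every class, and lower again in aged AAV-B3GNT3. In excitatory neurons it was 19.0, 16.6 and 18.5 CPM in the young AAV-EGFP libraries, 27.9, 45.4 and 40.8 in aged AAV-EGFP and 16.8, 19.2 and 19.8 in aged AAV-B3GNT3. The 3 aged AAV-EGFP libraries stood above the other 6, and the fitted differences were 1.08 (SE 0.16) in ageing and -1.03 (SE 0.16) in treatment. In oligodendrocytes, the myelinating glia, it was 46.1, 42.9 and 28.7 (young), 76.8, 146 and 101 (aged AAV-EGFP) and 36.4, 33.5 and 40.2 (aged AAV-B3GNT3), with differences of 1.45 (SE 0.22) and -1.55 (SE 0.22). In BECs it was 67.2, 81.4 and 31.5 (young), 256, 179.9 and 163 (aged AAV-EGFP) and 60.5, 88.0 and 68.1 (aged AAV-B3GNT3), or 1.67 (SE 0.36) and -1.43 (SE 0.37). In these 3 classes aged AAV-EGFP did not overlap either other group, while young and aged AAV-B3GNT3 overlapped each other.

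Over the 9 classes the Gapdh difference ranged from 1.02 to 1.76 in ageing and from -1.68 to -0.95 in treatment. The aged AAV-EGFP libraries were above all young libraries in 7 of 9 classes and above all AAV-B3GNT3 libraries in 8 of 9. The classes come from the same 9 libraries, so these are not independent repeats. The share of all genes separated in the same way is not given here. Pericytes were the class that overlapped in both, with 36.6, 72.6 and 38.7 (young), 54.3, 166 and 153 (aged AAV-EGFP) and 22.2, 38.9 and 71.7 (aged AAV-B3GNT3), and microglia overlapped in ageing, with 57.0, 85.0 and 45.1 in young and 110.0, 214 and 80.7 in aged AAV-EGFP. The highest of the 9 libraries was an aged AAV-EGFP library in 9 of 9 classes, replicate 2 in 8 of them. Without aged AAV-EGFP replicate 2 the differences were 0.60 to 1.71 in ageing and -1.50 to -0.82 in treatment, so the direction did not rest on that library.

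**Figure D1:**
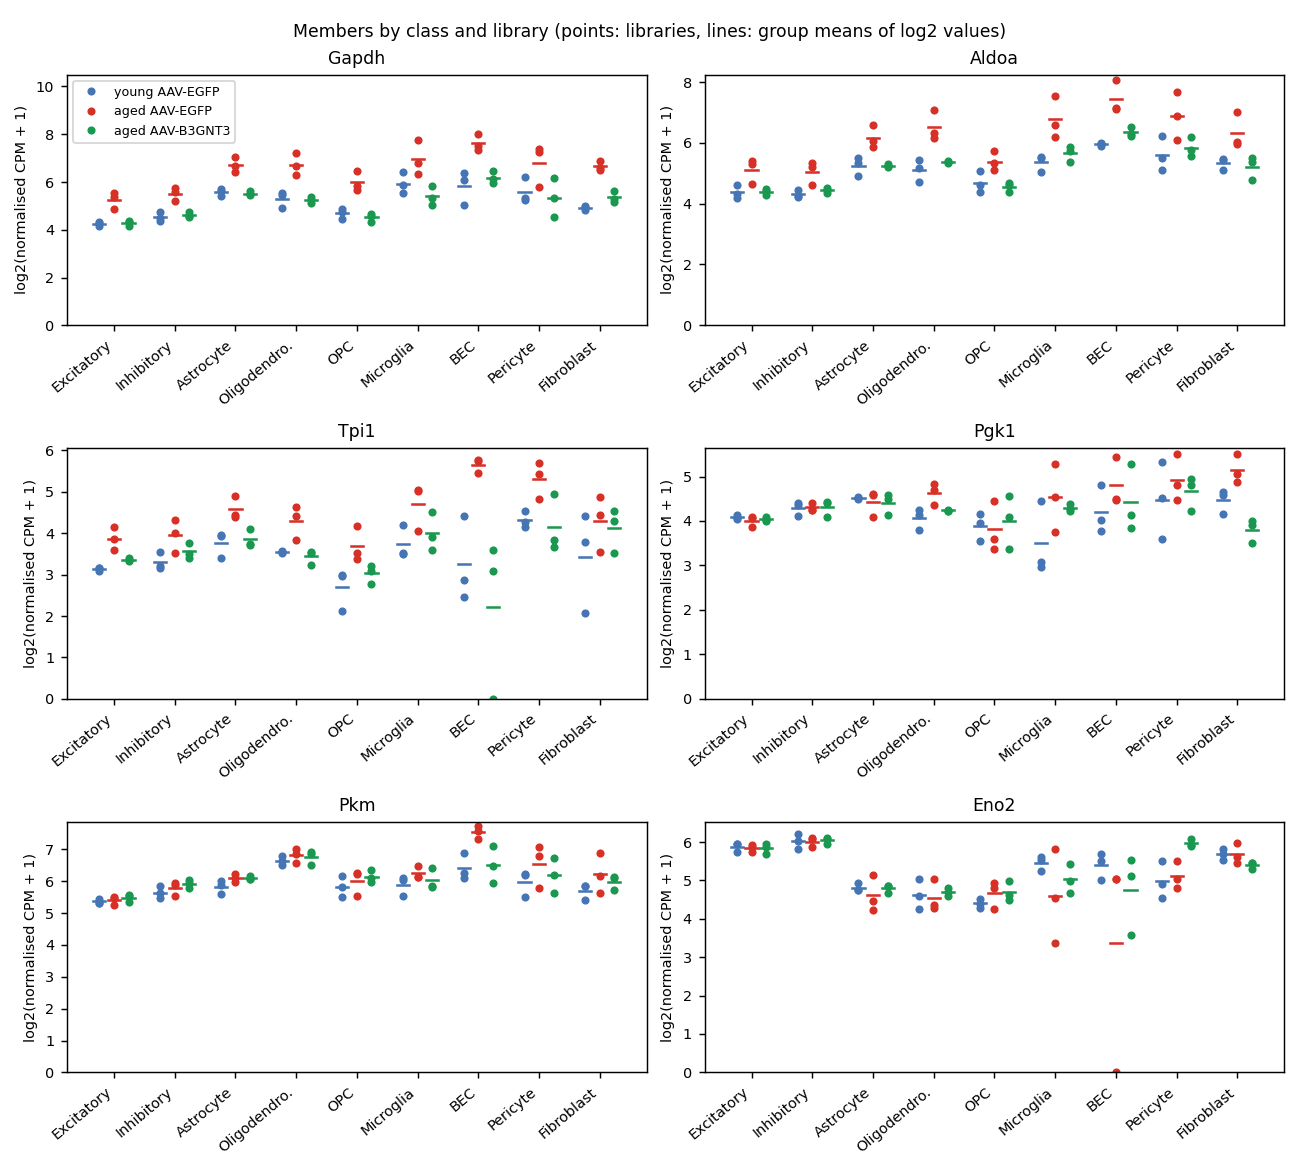
Levels of 6 of the enzymes in each library, as log2(normalised CPM + 1) by class. Points are libraries, coloured by group (n = 3 each), and lines are the group means of the log2 values. Gapdh and Aldoa stand higher in aged AAV-EGFP than in both other groups across classes, Tpi1 less widely, and Pgk1, Pkm and Eno2 mostly lie together.

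Among the other 9 members, 68 of the 81 member and class pairs had enough counts to be tested. In ageing 11 of the 68 passed, all higher in aged AAV-EGFP, beside 10.6% of all gene and class tests. In treatment 5 of the 68 passed, all lower in aged AAV-B3GNT3, beside a background of 3.45%. At an unadjusted p under 0.05 the counts were 25 and 27. In ageing 56 of 68 fitted values lay above 0 and in treatment 48 of 68 lay below 0. The shares of all gene and class tests under that threshold, or on each side of 0, are not given here. The unadjusted and sign counts, here and below, therefore do not set the members apart. The members that passed were Aldoa, Tpi1 and Pgk1, and no tested pair of Aldoc, Eno1, Eno2, Pkm, Ldha or Ldhb did.

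The counts depended on single libraries. The ageing count was 4 without aged AAV-EGFP replicate 2, 5 without replicate 3 and 18 without replicate 1 of that group, and 6, 4 and 6 without young replicates 1, 2 and 3. The treatment count was 13, 1 and 3 without aged AAV-EGFP replicates 1, 2 and 3. Without aged AAV-B3GNT3 replicate 2 edgeR called 0 treatment pairs, with 19 at an unadjusted p under 0.05, while DESeq2 on all libraries called 6.

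By class, the ageing calls were Aldoa and Tpi1 in excitatory neurons (14.6% of all genes tested there were called), Aldoa in inhibitory neurons (4.24%), Aldoa and Tpi1 in astrocytes (12.1%), Aldoa, Tpi1 and Pgk1 in oligodendrocytes (21.6%), and Aldoa alone in microglia (11.6%), BECs (6.42%) and pericytes (8.29%). No member was called in OPCs (3.44%) or fibroblasts (5.16%) by edgeR, where 3 and 2 of 9 had an unadjusted p under 0.05 and DESeq2 called none. In treatment the calls were Aldoa in excitatory neurons (2.60%), astrocytes (4.97%) and microglia (4.10%), and Aldoa and Tpi1 in oligodendrocytes (9.99%). None was called in inhibitory neurons (0.712%), OPCs (0.779%), BECs (3.15%), pericytes (1.27%) or fibroblasts (1.25%) by edgeR, where 2, 3, 2, 1 and 3 members had an unadjusted p under 0.05. DESeq2 called 1 pair there, in inhibitory neurons, and 2 pairs in excitatory neurons in treatment. It called no member in pericytes in ageing or in microglia in treatment, where edgeR called Aldoa. Members with too few counts were Tpi1 and Pgk1 in microglia, Aldoc, Tpi1, Pgk1, Eno1, Eno2 and Ldhb in BECs, and Aldoc, Tpi1, Pgk1, Eno1 and Ldha in pericytes.

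Where all 9 were tested, the median of the 9 log2 fold changes in ageing was 0.21 for excitatory and 0.16 for inhibitory neurons, 0.31 for astrocytes, 0.51 in oligodendrocytes, 0.34 in OPCs and 0.57 in fibroblasts. The medians of all genes tested in those classes lay between -0.0022 and 0.034. In treatment the medians of the 9 were 0.0015, -0.15, -0.34, -0.64, 0.020 and -0.40 in the same order. The medians of all genes there lay between -0.0035 and 0.014. These medians of all genes are not matched to the members for gene length, with which fold changes also moved, as described below.

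**Figure D2:**
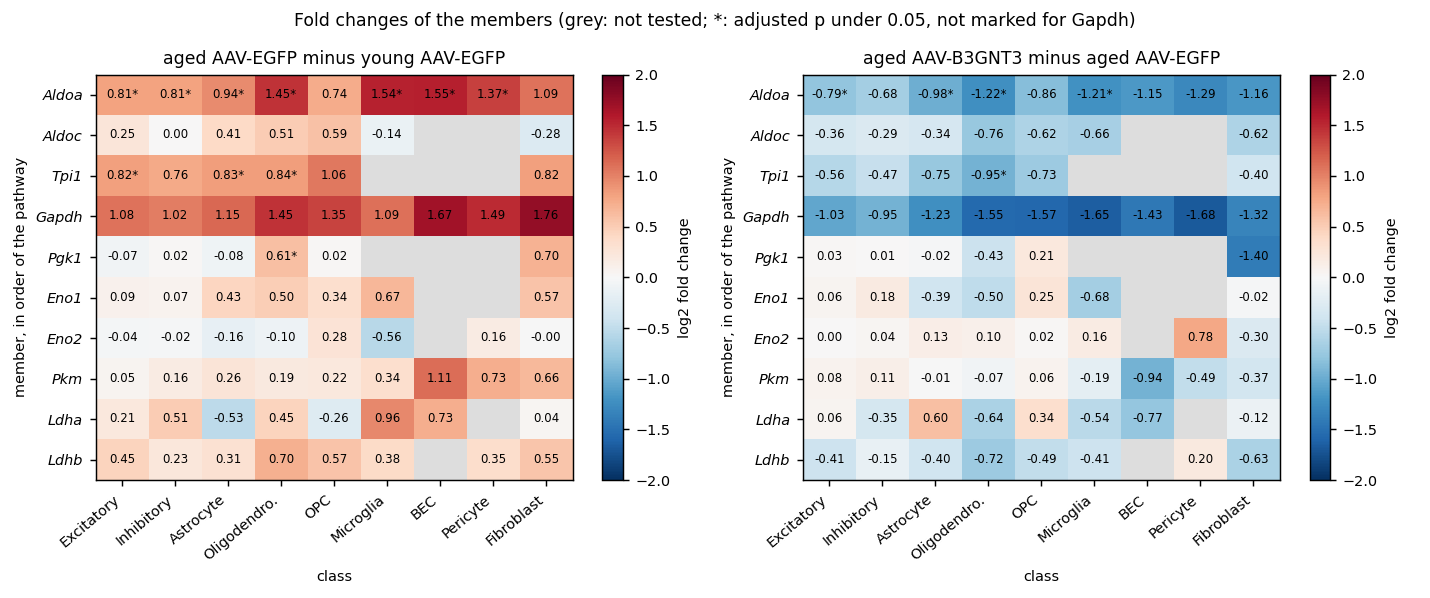
Log2 fold change of each enzyme in each class, with a panel for ageing and a panel for treatment. Colour is the fitted log2 fold change, grey is not tested, and an asterisk marks an adjusted p under 0.05 (edgeR), which is not marked for Gapdh. Gapdh and Aldoa are above 0 in all 9 classes in ageing and below 0 in all 9 in treatment, while Eno2 lies on both sides of 0.

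Aldoa encodes aldolase A, which splits fructose-1,6-bisphosphate and is the aldolase of most cells. In oligodendrocytes it was 42.2, 35.1 and 25.5 CPM in the young AAV-EGFP libraries, 70.2, 134 and 80.0 in aged AAV-EGFP and 39.8, 40.6 and 41.3 in aged AAV-B3GNT3. The aged AAV-EGFP libraries stood apart from both other groups, and Aldoa rose by 1.45 (SE 0.23, adjusted p = 0.00201) in ageing and fell by 1.22 (SE 0.23, adjusted p = 0.00983) in treatment. In astrocytes it was 44.7, 39.3 and 29.2 (young), 57.2, 96.0 and 65.9 (aged AAV-EGFP) and 38.6, 36.3 and 36.5 (aged AAV-B3GNT3), again with aged AAV-EGFP apart from both other groups and differences of 0.94 (SE 0.20, adjusted p = 0.00803) and -0.98 (SE 0.20, adjusted p = 0.0191). In microglia, the resident immune cells, it was 32.2, 44.2 and 45.1 (young), 94.3, 187 and 71.7 (aged AAV-EGFP) and 52.6, 40.5 and 57.2 (aged AAV-B3GNT3), with 1.54 (adjusted p = 0.00337) and -1.21 (adjusted p = 0.0196).

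In excitatory neurons Aldoa was 23.8, 17.1 and 18.7 (young), 24.0, 41.4 and 38.6 (aged AAV-EGFP) and 20.5, 21.4 and 18.4 (aged AAV-B3GNT3). The lowest aged AAV-EGFP library, replicate 1, lay just above the highest young one, and the changes were 0.81 (SE 0.19, adjusted p = 0.0181) and -0.79 (SE 0.19, adjusted p = 0.0491). Aldoa also rose in ageing in inhibitory neurons (0.81), BECs (1.55) and pericytes (1.37), where the treatment values of -0.68, -1.15 and -1.29 did not pass. In OPCs (0.74, adjusted p = 0.092) and fibroblasts (1.09, adjusted p = 0.0503) the ageing values did not pass although young and aged AAV-EGFP did not overlap. Over the 9 classes Aldoa ranged from 0.74 to 1.55 in ageing and from -1.29 to -0.68 in treatment, and its highest library was aged AAV-EGFP replicate 2 in 9 of 9 classes.

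Of the 7 ageing calls of Aldoa, those in astrocytes, oligodendrocytes and microglia held when any 1 of the 9 libraries was left out, and those in excitatory neurons, inhibitory neurons, BECs and pericytes were lost without aged AAV-EGFP replicate 2, with adjusted p values of up to 0.083, 0.125, 0.0868 and 0.289 over the libraries left out in turn. They were also lost without aged AAV-EGFP replicate 3 (except BECs), without young replicate 2, without young replicate 3 (except BECs) and without young replicate 1 (inhibitory neurons and BECs). The 4 treatment calls were all lost without aged AAV-B3GNT3 replicate 2, with adjusted p up to 0.208 (excitatory neurons), 0.0938 (astrocytes), 0.053 (oligodendrocytes) and 0.232 (microglia). The calls in excitatory neurons, astrocytes and microglia were also lost without aged AAV-EGFP replicate 2, and that in excitatory neurons was lost without any 1 library other than young replicate 1 and aged AAV-EGFP replicate 1.

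Aldoc encodes aldolase C, the isozyme of astrocytes. In that class it was 148, 139 and 139.8 CPM in the young AAV-EGFP libraries, 142, 234 and 188 in aged AAV-EGFP and 151, 168 and 127 in aged AAV-B3GNT3. The groups overlapped, and the differences of 0.41 (SE 0.17, adjusted p = 0.13) and -0.34 (SE 0.17, adjusted p = 0.261) did not pass. Over the 7 classes tested Aldoc ranged from -0.28 to 0.59 in ageing, and fibroblasts and microglia lay below 0. The aldolase pair therefore showed Aldoa calls in astrocytes without an Aldoc call, and the difference between the 2 genes was not tested.

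Tpi1 encodes triose phosphate isomerase, which turns dihydroxyacetone phosphate into the substrate of Gapdh. In excitatory neurons it was 7.56, 7.87 and 7.93 CPM in the young AAV-EGFP libraries, 11.0, 13.4 and 16.7 in aged AAV-EGFP and 9.29, 9.03 and 9.58 in aged AAV-B3GNT3. All aged AAV-EGFP libraries lay above the other 6, and Tpi1 rose by 0.82 (SE 0.15, adjusted p = 0.00911) in ageing, while the treatment value of -0.56 (adjusted p = 0.0656) did not pass. In oligodendrocytes it was 10.51, 10.9 and 10.7 (young), 13.3, 23.7 and 20.3 (aged AAV-EGFP) and 10.7, 8.46 and 10.55 (aged AAV-B3GNT3), a rise of 0.84 (SE 0.22, adjusted p = 0.0177) and then a change of -0.95 (SE 0.22, adjusted p = 0.0188). In astrocytes it was 14.2, 14.5 and 9.48 (young), 20.02, 28.7 and 20.7 (aged AAV-EGFP) and 12.5, 16.2 and 12.2 (aged AAV-B3GNT3), a rise of 0.83 (SE 0.23, adjusted p = 0.0326), with a treatment value of -0.75 that did not pass.

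The Tpi1 values in inhibitory neurons (0.76), OPCs (1.06) and fibroblasts (0.82) were of like size in ageing and did not pass. In BECs Tpi1 was too low to test, with 25 UMIs over the 9 libraries and 0 to 6 in each, at 4.48, 20.3 and 6.29 (young), 53.4, 52.9 and 42.6 (aged AAV-EGFP) and 0, 11.0 and 7.57 (aged AAV-B3GNT3). The Tpi1 call in excitatory neurons held without any 1 library. The calls in astrocytes and oligodendrocytes were lost without aged AAV-EGFP replicate 2 or 3 and without each young replicate, with adjusted p up to 0.144 and 0.0695, and the treatment call in oligodendrocytes was lost without aged AAV-EGFP replicate 2 or 3 or aged AAV-B3GNT3 replicate 2, with adjusted p up to 0.0964.

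Pgk1 encodes phosphoglycerate kinase 1, which follows Gapdh directly and uses its product to make ATP. In excitatory neurons Pgk1 was 15.6, 15.7 and 16.5 CPM in the young AAV-EGFP libraries, 13.5, 16.1 and 15.7 in aged AAV-EGFP and 14.9, 16.0 and 15.3 in aged AAV-B3GNT3. The 9 libraries lay together, with differences of -0.074 (SE 0.11, adjusted p = 0.683) and 0.026 (SE 0.11, adjusted p = 0.916). In oligodendrocytes it was 16.6, 12.9998 and 18.0 (young), 19.5, 27.5 and 25.1 (aged AAV-EGFP) and 18.0, 17.8 and 17.8 (aged AAV-B3GNT3), with aged AAV-EGFP apart from both other groups, and rose by 0.61 (SE 0.18, adjusted p = 0.033) in ageing, while the treatment value was -0.43 (adjusted p = 0.138). That call was lost without young replicate 1 or 2, aged AAV-EGFP replicate 2 or 3, or aged AAV-B3GNT3 replicate 1, with adjusted p up to 0.131. In fibroblasts, where the aged AAV-EGFP libraries at 32.1, 44.3 and 28.5 lay above all others, the treatment value of -1.40 (adjusted p = 0.0699) did not pass.

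Dividing by the Pgk1 UMIs of the same class and library removes any scaling between libraries. In excitatory neurons the Gapdh to Pgk1 ratio was 1.22, 1.06 and 1.12 in young, 2.06, 2.82 and 2.60 in aged AAV-EGFP and 1.13, 1.20 and 1.29 in aged AAV-B3GNT3. The Aldoa to Pgk1 ratio was 1.53, 1.09 and 1.13, 1.78, 2.57 and 2.46 and 1.38, 1.34 and 1.20 in the same groups, and the Tpi1 to Pgk1 ratio 0.485, 0.502 and 0.479, 0.816, 0.834 and 1.06 and 0.624, 0.565 and 0.626. All 3 ratios were higher in every aged AAV-EGFP library than in any other library. The Pkm to Pgk1 ratio was 2.76, 2.46 and 2.37, 2.74, 2.77 and 2.76 and 3.08, 2.88 and 2.61, with the groups overlapping. In oligodendrocytes, where Pgk1 itself rose, the Gapdh ratio was 2.77, 3.30 and 1.60, 3.95, 5.31 and 4.02 and 2.02, 1.88 and 2.26, still highest in aged AAV-EGFP, as was that of Aldoa, while the Tpi1 ratio overlapped. In fibroblasts, with as few as 6 Pgk1 UMIs in a library, the mean Gapdh ratio was 1.42 ± 0.367 (young; SD, n = 3), 2.91 ± 0.281 (aged AAV-EGFP) and 3.15 ± 0.613 (aged AAV-B3GNT3), and the 2 aged groups overlapped.

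The enolases convert 2-phosphoglycerate to phosphoenolpyruvate. Eno2, the neuronal enolase, was 60.8, 52.4 and 60.9 CPM in the young AAV-EGFP libraries, 52.5, 57.6 and 59.2 in aged AAV-EGFP and 58.0, 60.6 and 51.0 in aged AAV-B3GNT3 in excitatory neurons. The groups overlapped, at -0.039 (SE 0.10, adjusted p = 0.822) in ageing and 0.0015 (SE 0.10, adjusted p = 0.995) in treatment. Over the 8 classes tested Eno2 ranged from -0.56 to 0.28 in ageing. Eno1, the enolase of most other cells, was 37.1, 40.5 and 35.9 (young), 58.9, 41.9 and 52.8 (aged AAV-EGFP) and 38.9, 40.8 and 36.9 (aged AAV-B3GNT3) in astrocytes, with aged AAV-EGFP apart from both other groups, where 0.43 (SE 0.16, adjusted p = 0.0888) and -0.39 (adjusted p = 0.164) did not pass. In excitatory neurons Eno1 was 20.3, 20.5 and 20.7 (young), 22.3, 19.5 and 23.8 (aged AAV-EGFP) and 23.6, 23.3 and 21.5 (aged AAV-B3GNT3), a difference of 0.091 (SE 0.11) in ageing. Eno1b, a copy of Eno1, had 284 UMIs over all barcodes.

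Pkm encodes the muscle-type pyruvate kinase, which makes pyruvate and ATP. In excitatory neurons it was 42.9, 38.6 and 39.2 CPM in the young AAV-EGFP libraries, 37.0, 44.5 and 43.4 in aged AAV-EGFP and 45.8, 46.1 and 39.96 in aged AAV-B3GNT3. The groups overlapped, with 0.051 (SE 0.11, adjusted p = 0.772) in ageing and 0.077 (SE 0.11, adjusted p = 0.694) in treatment. In BECs, where the transgene was targeted, Pkm was 67.2, 117 and 75.5 (young), 214, 159 and 192 (aged AAV-EGFP) and 87.5, 137 and 60.5 (aged AAV-B3GNT3), and although the aged AAV-EGFP libraries lay above the others, the values of 1.11 (SE 0.35, adjusted p = 0.069) and -0.94 (SE 0.35, adjusted p = 0.171) did not pass.

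Ldha and Ldhb encode the lactate dehydrogenase subunits, the A form favouring lactate production and the B form its oxidation. Ldhb in oligodendrocytes was 21.9, 25.8 and 14.2 CPM in the young AAV-EGFP libraries, 20.8, 46.6 and 34.0 in aged AAV-EGFP and 20.6, 20.2 and 20.8 in aged AAV-B3GNT3. Aged AAV-EGFP replicate 1 lay among the other groups, and 0.70 (SE 0.26, adjusted p = 0.0705) and -0.72 (adjusted p = 0.092) did not pass. Over the 8 classes tested Ldhb ranged from 0.23 to 0.70 in ageing. Ldha in astrocytes was 13.6, 13.3 and 18.2 (young), 10.9, 11.2 and 8.87 (aged AAV-EGFP) and 12.2, 19.9 and 14.2 (aged AAV-B3GNT3), lower in the aged AAV-EGFP libraries than in every other library and so opposite to Gapdh, at -0.53 (SE 0.26, adjusted p = 0.202) and 0.60 (SE 0.26, adjusted p = 0.193), which did not pass. In BECs, where Ldha was highest, it was 49.3, 50.9 and 44.1 (young), 85.5, 106 and 56.8 (aged AAV-EGFP) and 26.9, 71.5 and 37.8 (aged AAV-B3GNT3).

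Whether a member's change differed between classes was tested on the difference from excitatory neurons in the same mouse (limma over all genes). In ageing 2 of 59 member and class tests passed, beside 5.53% of all genes, and in treatment 0 of 59, beside 2.30%. At an unadjusted p under 0.05 limma gave 7 in each contrast. The 2 were Aldoa and Pgk1 in oligodendrocytes, whose ageing changes exceeded those in excitatory neurons by 0.65 (adjusted p = 0.0376) and 0.66 (adjusted p = 0.0148). Neither passed without aged AAV-EGFP replicate 2, and 1 passed without each young replicate and without aged AAV-B3GNT3 replicate 1. The ageing difference of Gapdh ranged from -0.064 to 0.61 above that in excitatory neurons.

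Over the 9 libraries, the gene whose log2 level was most like Gapdh was Aldoa, with a mean Pearson r of 0.97 over excitatory neurons, inhibitory neurons, astrocytes and oligodendrocytes, rank 1 of 11623 genes tested in all 4. It was followed by Eef1a1 (0.96), a translation elongation factor, Elob (0.96), an elongin subunit, Rpl28 (0.95), a ribosomal protein, and Pcsk1n (0.95), a proprotein convertase inhibitor. Of the other members Tpi1 ranked 86 (r = 0.88), Ldhb 474 (0.74), Aldoc 1007 (0.62), Pkm 2612 (0.34), Eno1 2626 (0.34), Pgk1 3411 (0.23), Ldha 3688 (0.19) and Eno2 4527 (0.076). The 9 points share their libraries and groups, so these are descriptions. With group means removed, r in single classes was -0.21 to 0.95 for Aldoa (median 0.83) and -0.22 to 0.90 for Pgk1 (median 0.37). Eno2, the least like Gapdh as measured (median 0.10 over 8 classes), had a median of 0.71 with group means removed.

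Steps of the pathway outside the 10 members were read from 58 further genes in lists, of which 53 were tested in 1 or more classes and 16 called in 1 or more tests. In ageing 14 rose and 10 fell of 322 gene and class tests, or 7.45%, beside 10.6% of all gene and class tests, and in treatment 4 rose and 9 fell, or 4.04%, beside 3.45%. These shares are below and close to those of all genes. The ageing count of 24 was 42 without aged AAV-EGFP replicate 1, 10 and 9 without replicates 2 and 3, and 11 and 8 without young replicates 2 and 3. The treatment count of 13 was 22 and 6 without aged AAV-EGFP replicates 1 and 2, 4 without aged AAV-B3GNT3 replicate 1 and 0 by edgeR without replicate 2, with 33 at an unadjusted p under 0.05. Glycolytic steps outside the members gave 6 up and 2 down of 74 in ageing (10.8%) and 1 up and 5 down in treatment (8.11%), and glucose and lactate transport gave 2 up and 3 down of 38 (13.2%), then 3 down (7.89%).

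Pgam1, phosphoglycerate mutase 1, the step between Pgk1 and the enolases, gave the most calls. In BECs it was 17.9, 30.5 and 31.5 CPM in the young AAV-EGFP libraries, 139, 148 and 107 in aged AAV-EGFP and 6.73, 27.5 and 37.8 in aged AAV-B3GNT3. In this class 1 UMI was 4.48 CPM in young replicate 1 and 7.57 CPM in aged AAV-B3GNT3 replicate 3. The values of the 6 libraries outside aged AAV-EGFP therefore rest on few UMIs. All 3 aged AAV-EGFP libraries stood far above the other 6, and Pgam1 rose by 2.28 (SE 0.49, adjusted p = 0.0136) and then changed by -2.40 (SE 0.52, adjusted p = 0.0204). It also rose in ageing in excitatory neurons (0.82), inhibitory neurons (0.78), astrocytes (0.71) and oligodendrocytes (1.04), and fell in treatment in excitatory neurons (-0.78), astrocytes (-1.30) and oligodendrocytes (-1.16). Both BEC calls were lost without aged AAV-EGFP replicate 2 or 3, the ageing call also without young replicate 1 or 2 and the treatment call without aged AAV-B3GNT3 replicate 1 or 2, with adjusted p up to 0.0582 and 0.121. Of its other 7 calls, the ageing call in oligodendrocytes held without any 1 library, those in treatment in astrocytes and oligodendrocytes were lost without aged AAV-B3GNT3 replicate 2 (adjusted p = 0.0775 and 0.0764) and that in ageing in excitatory neurons was lost without young replicate 3 (adjusted p = 0.0503). The ageing calls in inhibitory neurons and astrocytes and the treatment call in excitatory neurons were lost without 6, 7 and 6 of the 9 libraries taken singly, aged AAV-EGFP replicate 2 among them each time, with adjusted p up to 0.135, 0.25 and 0.159.

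Bsg, basigin, the chaperone of lactate transporters, was 1232, 1373 and 774 (young), 4349, 2529.6 and 2998 (aged AAV-EGFP) and 780.4, 902 and 1180.2 (aged AAV-B3GNT3) in BECs. Aged AAV-EGFP stood apart from both other groups, and Bsg rose by 1.54 (SE 0.28, adjusted p = 0.00975) and fell in treatment (-1.79, SE 0.28, adjusted p = 0.00817). The treatment call in BECs was lost without aged AAV-B3GNT3 replicate 1 or 2, with adjusted p up to 0.0824. Bsg was also called up in oligodendrocytes in ageing, and down in astrocytes and oligodendrocytes in treatment. Pfkfb3, which makes the activator of phosphofructokinase, went the other way in excitatory neurons, at 38.8, 36.3 and 40.3 (young), 12.98, 16.7 and 16.9 (aged AAV-EGFP) and 23.1, 30.5 and 22.7 (aged AAV-B3GNT3). It fell in ageing (-1.30, adjusted p = 0.00232) and rose in treatment (0.71, adjusted p = 0.0369), a call lost without young replicate 2 or 3, aged AAV-EGFP replicate 2 or aged AAV-B3GNT3 replicate 1 or 2 (adjusted p up to 0.172). Pfkfb3 was also called down in inhibitory neurons in ageing and up in astrocytes in treatment. How these further calls of Bsg and Pfkfb3 held without single libraries is not given here.

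Pfkp, the platelet-type phosphofructokinase, was 263, 253 and 249 (young), 186, 200.3 and 186 (aged AAV-EGFP) and 249, 238 and 199 (aged AAV-B3GNT3) in excitatory neurons, lower in all aged AAV-EGFP libraries than in young, and fell by 0.42 in ageing (adjusted p = 0.0186), a call lost without any 1 young replicate or aged AAV-EGFP replicate 3 (adjusted p up to 0.0682). Pfkp was also called down in oligodendrocytes in ageing. Dlat, a subunit of pyruvate dehydrogenase, in oligodendrocytes fell in ageing (-0.46) and rose in treatment (0.69), the first call lost without any 1 library except aged AAV-EGFP replicate 1 and aged AAV-B3GNT3 replicates 2 and 3 (adjusted p up to 0.115) and the second lost without aged AAV-B3GNT3 replicate 2 (adjusted p = 0.0541). Dlat was also called down in excitatory neurons in ageing. Slc16a7, a monocarboxylate transporter, fell in ageing in astrocytes (-1.53) and OPCs (-0.90), calls lost without aged AAV-EGFP replicate 2 or 3 (in OPCs also without young replicate 2), with adjusted p up to 0.079 and 0.124. Pygb, brain glycogen phosphorylase, fell in oligodendrocytes (-0.70) and rose in fibroblasts (1.38), and both calls were lost without aged AAV-EGFP replicate 2 or young replicate 3, the first also without young replicate 1 and the second without young replicate 2 or aged AAV-EGFP replicate 3, with adjusted p up to 0.071 and 0.138. Eno4, an enolase-related gene best known from sperm, rose in oligodendrocytes from 2.28, 3.25 and 2.03 to 7.202, 16.0 and 14.2 (2.31, adjusted p = 0.00277) and fell in treatment (-1.47), a call lost without aged AAV-EGFP replicate 2 or 3 or aged AAV-B3GNT3 replicate 1 or 2 (adjusted p up to 0.109).

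In the remaining pathway lists the share called ran from 2.22% to 9.26% in ageing, each below the 10.6% of all tests, and up to 3.64% in treatment, beside 3.45%. Regulators of glycolysis gave 1 up and 2 down of 55 in ageing and 2 up in treatment, pyruvate entry to mitochondria 2 down of 52 and then 1 up, the pentose phosphate pathway 1 up of 45 and then 1 down, and glycogen metabolism 4 up and 1 down of 58 and then 0 by edgeR (12 had p under 0.05 before adjustment) and likewise 0 by DESeq2. Of 10 hypoxia-induced genes, Ndrg1 rose in BECs (1.44) and Hif3a in excitatory neurons (0.78) in ageing, and P4ha1 fell in excitatory neurons (-0.59), oligodendrocytes (-1.58) and pericytes (-1.33), 5 of 54 tests, and in treatment edgeR called 0 of 54 (8 at an unadjusted p under 0.05) and DESeq2 also 0. Of the nuclear-retained RNAs Malat1, Meg3 and Neat1, 9 of 27 tests passed in each contrast, 33.3%. In ageing 6 were down, all of them Meg3 and none in either neuron class or OPCs. The other 3 were up, Neat1 in oligodendrocytes and Neat1 and Malat1 in pericytes. In treatment 4 were up, all of them Meg3. The 5 that were down were Malat1 in astrocytes, oligodendrocytes, OPCs and pericytes and Neat1 in oligodendrocytes.

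Other measures moved with the same libraries. The summed CPM of ribosomal protein genes in oligodendrocytes was 1243 to 1517 in young, 2026 to 2979 in aged AAV-EGFP and 1291 to 1544 in aged AAV-B3GNT3, and in BECs it was 3260.4 to 5037, 7728 to 10016 and 3254 to 4551. The aged AAV-EGFP libraries were the highest in 9 of 9 classes in both contrasts. Of 80 ribosomal protein genes tested in oligodendrocytes 66 rose in ageing (median 0.92) and 67 fell in treatment (median -1.02), beside 21.6% and 9.99% of all genes called there. In excitatory neurons 28 of 80 rose and 1 fell in ageing and 16 fell in treatment, beside 14.6% and 2.60%. The counts up in ageing and down in treatment were smallest in 4 classes. They were 11 and 5 of 80 in inhibitory neurons, 10 and 6 of 75 in fibroblasts, 2 and 3 of 73 in OPCs and 1 and 1 of 17 in pericytes. The mitochondrial share of UMIs was higher in all aged AAV-EGFP libraries than in young in 1 of 9 classes and lower in all AAV-B3GNT3 libraries in 4 of 9, and the estimated share of free RNA was lower in aged AAV-EGFP in 4 of 9 and higher in AAV-B3GNT3 in 2 of 9. The marker list behind the free RNA estimate differed between libraries in some classes. In OPCs it was the excitatory list in young and the oligodendrocyte list in aged AAV-EGFP, so that separation sets unlike measures side by side. The part of these measures in the members' differences was not tested beyond a fit with the mitochondrial share and a fit after subtraction of free RNA. The ageing count of 11 was 3 with the mitochondrial share as a covariate and 4 after free RNA was subtracted, and the treatment count of 5 was 1 and 0. In that last case edgeR gave 24 pairs at an unadjusted p under 0.05. The 7 ageing calls of Aldoa, 0.81 to 1.55 as measured, were 0.79 to 1.56 after subtraction and 0.60 to 1.69 with the covariate, and the ageing range of Gapdh was 0.99 to 1.81 and 0.26 to 1.74.

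Fold changes also moved with gene length. Among all genes tested in a class, sorted by span and divided into 10 equal parts, the shortest part had a median log2 fold change of 0.31 to 0.90 in ageing and -0.84 to -0.33 in treatment over the 9 classes. The longest part had medians of -0.64 to -0.060 in ageing and -0.096 to 0.34 in treatment, where inhibitory and excitatory neurons were below 0. Tpi1 spans 3711 bases, Gapdh 4753, Aldoc 4814 and Aldoa 5518, against 9621 for Eno2, 12159 for Eno1, 14153 for Ldha, 16600 for Pgk1, 17709 for Ldhb and 23008 for Pkm, so the members that were called most are among the 4 shortest. Within its own length part, the ageing value of Gapdh lay above 84.0% to 98.7% of genes over the classes, that of Aldoa above 77.0% to 98.2%, that of Tpi1 above 67.1% to 90.4% and that of Aldoc above 14.2% to 69.1%. Gapdh was singled out for its group differences, so its place is a description. Among the longer members the range was 53.4% to 90.5% for Pkm, 59.6% to 86.7% for Ldhb and 49.5% to 85.0% for Eno1. It was 35.3% to 87.0% for Pgk1, 6.02% to 94.7% for Ldha and 3.48% to 60.8% for Eno2. In treatment the share of genes of the same part lying below was 1.497% to 23.0% for Gapdh, 3.85% to 35.7% for Aldoa (both highest in BECs) and 22.2% to 52.8% for Tpi1, whose value in fibroblasts was close to the median of its part. The part of length in the members' differences was not tested further.

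**Figure D3:**
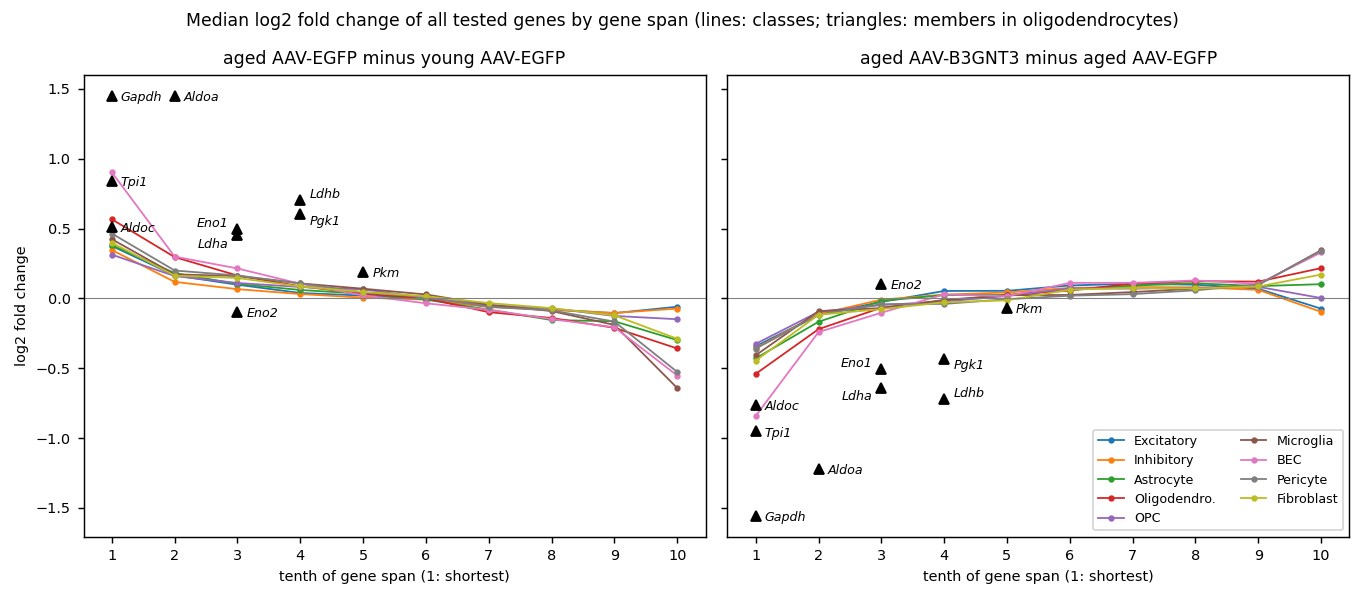
Median log2 fold change of all genes tested, by span in 10 equal parts from shortest to longest, with 1 line a class and 1 panel a contrast. Triangles are the 10 enzymes in oligodendrocytes. In ageing every line is higher in the shortest part than in the longest, and in treatment lower, but the lines are not straight and those of neurons turn down in treatment among the longest genes. Gapdh, Aldoa and Tpi1 lie at the short end and outside the line of their class.

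Levels across classes are given as plain CPM, the mean over the 9 mice, each class of a mouse set against excitatory neurons of the same mouse by a two-sided exact sign-flip permutation test. The smallest p that 9 mice allow is 0.00391. Of 80 comparisons 61 passed after adjustment over all genes compared in the class. They numbered 9 of 10 in inhibitory neurons (48.6% of all genes differed there), 9 in astrocytes (69.2%), 10 in oligodendrocytes (72.5%), 7 in OPCs (54.7%), 7 in microglia (63.8%), 6 in BECs (56.9%), 6 in pericytes (53.7%) and 7 in fibroblasts (59.7%).

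Aldoc had the sharpest class pattern of the members. It was 158 ± 30.7 CPM (SD, n = 9) in astrocytes, with lowest 131, median 145, highest 217, and 4.34 ± 0.914 in excitatory neurons, a log2 difference of 4.90 (adjusted p = 0.00754, exact permutation). After free RNA was subtracted Aldoc was 199 ± 33.2 and 2.81 ± 1.08 in the same classes. The next class, BECs, was at 26.3 ± 16.3. Ldhb was also highest in astrocytes (128 ± 17.9) and then in microglia (90.1 ± 21.4), against 29.5 ± 6.26 in excitatory neurons, and both steps in that order were larger than their spread over mice. Eno1 was highest in astrocytes (42.4 ± 7.78) and OPCs (37.6 ± 9.47), which did not differ beyond their spread, and lowest in oligodendrocytes (12.8 ± 2.97).

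Eno2 was highest in inhibitory (64.7 ± 8.17) and excitatory neurons (57.1 ± 6.03), with the step between them larger than its spread, and lowest in OPCs (23.0 ± 4.43). The estimated share of free RNA was 18.2% to 44.9% of UMIs in OPC libraries, and after its subtraction Eno2 was 11.2 ± 8.19 there, 13.3 ± 5.08 in oligodendrocytes (from 24.2 ± 5.25) and 16.2 ± 5.22 in astrocytes (from 25.9 ± 4.66), against 57.9 ± 6.22 in excitatory neurons. Pkm was highest in oligodendrocytes (106 ± 14.4) and BECs (104 ± 44.2), which did not differ beyond their spread, and lowest in excitatory neurons (42.1 ± 5.42). Ldha was highest in BECs (49.4 ± 18.9), a step above fibroblasts (19.7 ± 4.33) larger than its spread, and lowest in oligodendrocytes (7.83 ± 2.30).

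Gapdh was lowest in excitatory neurons (24.8 ± 10.6), followed by inhibitory neurons (30.2 ± 11.3) and OPCs (36.1 ± 21.0), and was between 54.6 ± 32.0 in fibroblasts and 92.7 ± 58.5 in BECs elsewhere, where neighbours in the order did not differ beyond their spread. Aldoa followed a like order, from 24.1 ± 7.45 in inhibitory neurons to 89.9 ± 50.5 in BECs. Pgk1 ran from 14.4 ± 5.23 in OPCs to 23.1 ± 8.73 in pericytes and Tpi1 from 8.20 ± 3.43 to 22.3 ± 11.2, with no neighbours in either order apart by more than their spread.

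**Figure D4:**
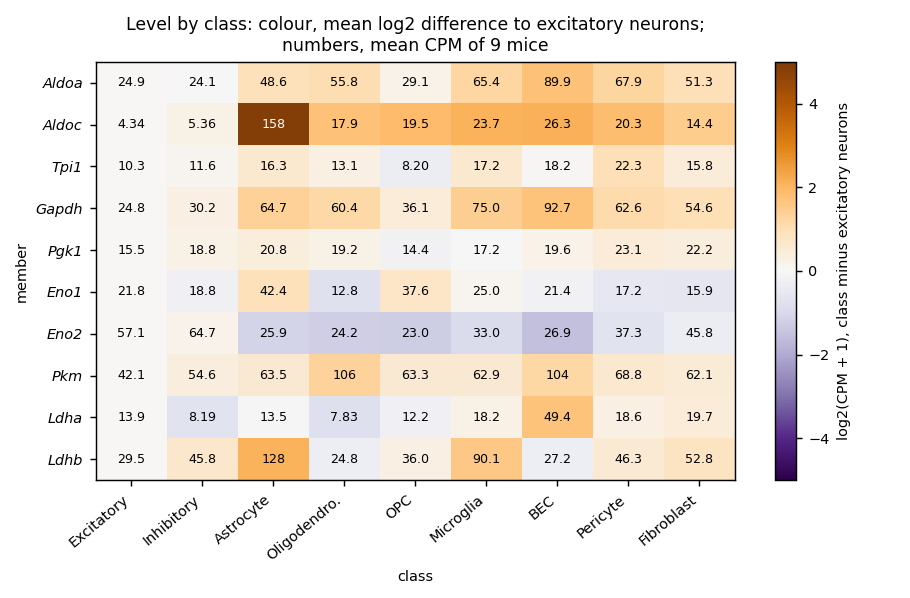
Level of each enzyme by class. Numbers are mean plain CPM of the 9 mice, and colour is the mean log2(CPM + 1) of the class minus that of excitatory neurons in the same mouse. Aldoc stands out in astrocytes, Eno2 is lower outside neurons than in them, and Pgk1 is pale throughout.

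Shares of UMIs within an isozyme pair need no scaling. Aldoc made up 77.0% ± 4.28 (SD, n = 9 mice) of aldolase UMIs (Aldoa and Aldoc) in astrocytes and 15.4% ± 2.79 in excitatory neurons, adjusted p = 0.00721 by an exact sign-flip permutation test over 24 comparisons, 18 of which passed. OPCs were at 40.4% ± 7.18 and no other class exceeded 28.7% ± 13.2 (microglia). Eno2 made up 77.7% ± 2.92 of enolase UMIs in inhibitory neurons, 72.4% ± 1.91 in excitatory neurons, and 38.3% ± 7.55 and 38.4% ± 4.36 in astrocytes and OPCs, both adjusted p = 0.00721 by exact permutation. After free RNA was subtracted the Eno2 share was 25.4% ± 7.36 in astrocytes, 18.1% ± 11.1 in OPCs and 44.8% ± 28.6 in microglia (from 56.1% ± 16.3), and 72.6% ± 1.94 in excitatory neurons.

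Ldhb made up 90.2% ± 3.31 of lactate dehydrogenase UMIs in astrocytes, 84.8% ± 1.86 in inhibitory neurons, 83.7% ± 5.58 in microglia, 67.8% ± 4.34 in excitatory neurons and 33.9% ± 10.6 in BECs, the class in which Ldha was the larger part in the mean. Each of the first 3 and BECs differed from excitatory neurons at adjusted p = 0.00721 (exact permutation). The BEC share rests on as few as 6 UMIs in a library. By group, the Aldoc share in astrocytes was 76.8% to 82.7% in young, 70.9% to 74.0% in aged AAV-EGFP and 77.7% to 82.2% in aged AAV-B3GNT3. The aged AAV-EGFP libraries lay below both other groups. So did the Aldoc share in excitatory neurons, at 14.3% to 20.7%, 11.5% to 13.1% and 15.7% to 17.1% in the same order. The Eno2 share in oligodendrocytes did likewise, at 62.4% to 73.4%, 56.8% to 60.5% and 67.5% to 69.9%. The Ldhb share in astrocytes lay above both other groups, at 87.4% to 90.7%, 92.9% to 94.7% and 83.7% to 90.1%. Group differences in shares were not tested.

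**Figure D5:**
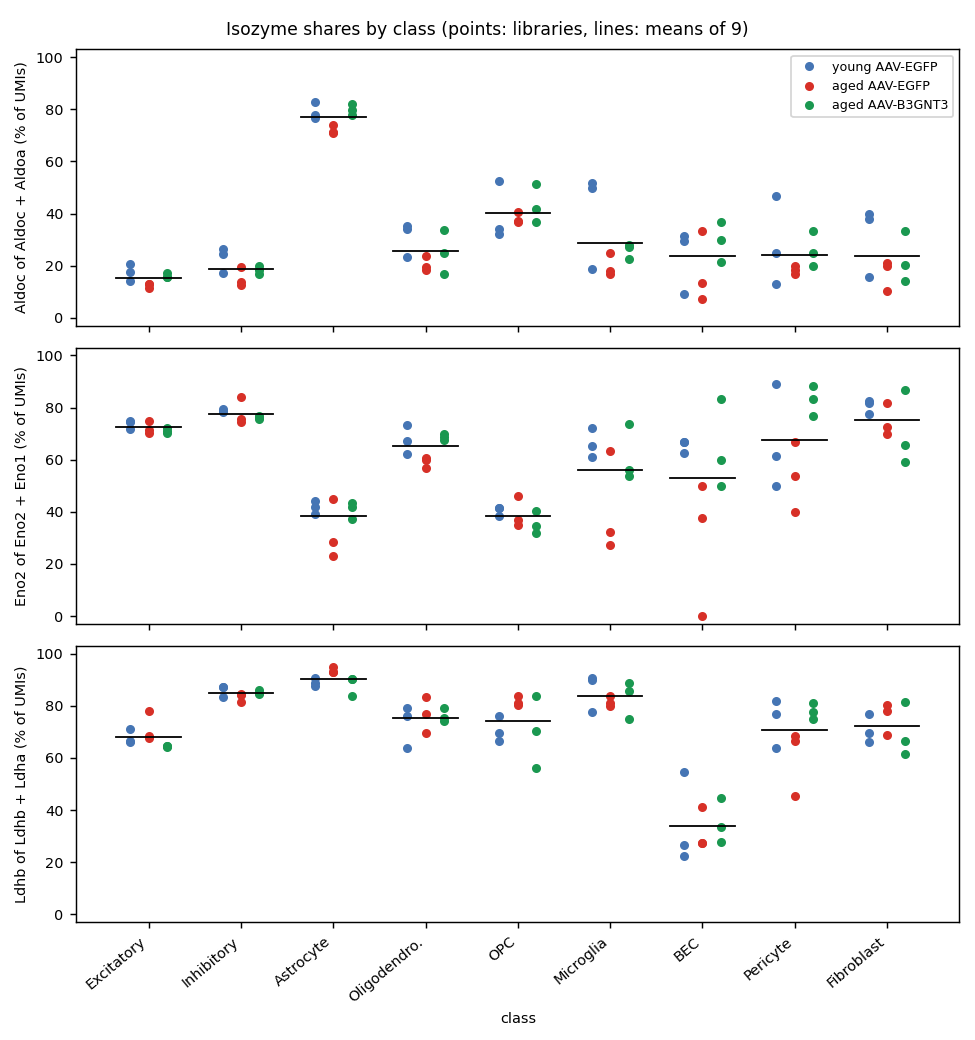
Share of Aldoc, Eno2 and Ldhb in the UMIs of their isozyme pair, by class, in percent. Points are libraries and lines are means of the 9. The mean Aldoc share is above 50% in astrocytes only, the mean Eno2 share as measured is below 50% only in astrocytes and OPCs, and the mean Ldhb share is below 50% only in BECs.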

How the data were processed

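UMI counts from single-nucleus RNA sequencing of 9 libraries were used. The deposited counts are raw UMIs per gene and barcode that the authors made with Cell Ranger, version 4.0.0 per the labels and 7.2.0 per the file headers, on mm10. Whether intronic reads were counted is not given in the sources used here. The study's ambient RNA correction is not in the deposited counts. Limits of 200 to 5000 genes and 10% mitochondrial UMIs left 74895 of 77823 barcodes, the highest doublet scores were removed at 0.8% per 1000 barcodes, and nuclei were clustered with scanpy 1.11.5 (2000 variable genes, 15 components, 20 neighbours, resolution 0.3). Clusters were named from marker genes, so class names are rebuilt here and 6218 nuclei stayed unnamed. UMIs were summed per class and library with 10 or more nuclei.

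Groups were compared with edgeR 4.0.16 (R 4.3.3) on all 9 libraries, with filterByExpr (count minimum of 10), TMM scaling and the quasi-likelihood test, adjusted over all genes tested in a class. Differences between classes were tested with limma 3.58.1, and levels and shares by an exact sign-flip permutation test over the 9 mice, on log2(CPM + 1) for levels. A single two-sided comparison of 3 against 3 libraries cannot reach below p = 0.1 by permutation, so the adjusted p values rest on the model. Each library is 1 mouse. The alternatives were DESeq2 1.42.0, scaling by RLE, keeping low counts, doublets or nuclei over the gene limit, finer clustering, free RNA subtraction, a mitochondrial covariate, a fit on the compared groups alone, a replicate block and each library left out in turn. The fit was tested on simulated data. By rule, the 8 pathway genes with most calls and the 5 genes most like Gapdh (Aldoa, a member, among them) are named. Ndrg1, Hif3a, P4ha1 and Meg3 were named after their values were seen, Malat1 and Neat1 complete the list that Meg3 belongs to, and Eno1b is named as a copy of Eno1. The members and lists were chosen with earlier results of these data known. Leaving out each mouse for levels, shares and differences between classes, and adjusting levels over all genes, were chosen after seeing the data. Counting errors follow the UMIs given, and intervals were not computed for single libraries. Genome positions of genes come from GENCODE and promoter windows from RefSeq, both on GRCm38.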

Additional observations from a re-analysis of the deposited data

Results flagged for a closer look

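The ageing changes of 2 enzymes differed between oligodendrocytes and excitatory neurons of the same mice, by a test of the difference itself (limma over all genes tested in both classes). Aldoa, aldolase A, changed by 0.65 log2 units more in oligodendrocytes, and Pgk1, phosphoglycerate kinase 1, by 0.66 more, with adjusted p values of 0.0376 and 0.0148. They are 2 of 59 such member tests in ageing, beside 5.53% of all genes over the classes and 1603 of 13010 genes in oligodendrocytes, so the count does not set the members apart. Neither difference passed without aged AAV-EGFP replicate 2. The summed ribosomal protein level and the share of free RNA also moved with the groups, and their part in these differences was not tested.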

How the results depend on the processing

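No Gapdh difference, no call of the other members and no call of the pathway genes named by rule reversed its direction under any alternative run. Levels by class that did not pass could change sign against excitatory neurons after free RNA subtraction. Tpi1 in BECs went from 0.062 to -0.12 and Eno1 in microglia from 0.091 to -0.12 (log2). Of the 9 members other than Gapdh, the ageing count of 11 became 3 with the mitochondrial share as a covariate and 4 after free RNA subtraction, and the treatment count of 5 became 1 and 0 (24 at an unadjusted p under 0.05), and 10 with no filter on low counts. Of the other pathway genes, the ageing count of 24 became 10 and 12, and the treatment count of 13 became 3 and 3, 22 with no filter and 8 in a fit on only the groups compared. The cause of these shifts was not tested.

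Leaving out 1 library at a time, the members' counts ranged from 4 to 18 in ageing and from 0 to 13 in treatment, the other pathway counts from 8 to 42 and from 0 to 22, and the differences between classes from 0 to 2. Counts of 0 came without aged AAV-B3GNT3 replicate 2 (treatment, with 19 member and 33 other pathway tests having p under 0.05 before adjustment), and also without aged AAV-EGFP replicate 2 (differences between classes). Gapdh kept its direction in every class under every setting run, and its smallest ageing difference was 0.26, in microglia with the mitochondrial covariate. Levels by class (61) and isozyme shares (18) stayed within 1.5 times their counts in every setting run.

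Same-numbered libraries of different groups gave 81 correlations of their deviations from group means, from -0.26 to 0.30, with 15 over 0.1. Young replicate 1 and aged AAV-B3GNT3 replicate 1 correlated above 0 in every class (0.068 to 0.30). Aged AAV-EGFP replicate 1 and aged AAV-B3GNT3 replicate 1 correlated below 0 in every class (-0.26 to -0.043). Libraries with different numbers were not compared, so whether the numbers pair samples was not tested. With the replicate block the members' counts were 10 and 5 and the other pathway counts 25 and 12. Depth limits BECs and pericytes, with as few as 45 nuclei in a library, where 6 and 5 of the 9 members could not be tested.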
